A study of Mus musculus with 15 samples.

Results

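The 10 genes described here belong to the interleukin-1 (IL-1) family or are known from neutrophils: the cytokines IL1A, IL1B and IL18, the antagonist IL1RN, the decoy receptor IL1R2, the calcium-binding proteins S100A8 and S100A9, the membrane protease ADAM8, and the receptors CSF3R and CXCR2. They are 10 of 24891 genes in a table of RNA levels from 15 libraries of mouse 105K tumors. They were chosen from measured values of these libraries: IL1RN was higher in sorted cells carrying shRNAs against B7-H3 than in control cells, while S100A8 and ADAM8 were lower in bulk tumors with such an shRNA. The levels of the 10 genes in those comparisons are therefore given as a description, with no test.

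IL-1α and IL-1β signal through the receptor IL1R1 to NF-κB, and IL-18 through IL18R1 and IL18RAP. Signalling is held in check by IL1RN, which occupies IL1R1 without activating it, by the decoy IL1R2, and by IL18BP, which binds IL-18. Neutrophils are drawn to inflamed tissue by chemokines acting on CXCR2, depend on CSF3R for their production, and carry S100A8 and S100A9 as an abundant protein pair.

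105K cells are Tsc2-deficient tumor cells (Tsc2-/-) whose line began as a kidney tumor in a Tsc2+/- animal, and they were grown under the skin of wild-type C57BL/6J mice, males of 6 weeks by the study's methods. All groups share the Tsc2 deficiency and an shRNA vector: sh-NC, a non-targeting control, or 1 of 2 shRNAs against B7-H3, the product of CD276, which are called sh-B7-H3 and told apart by the numbers (1) and (2). The methods call the knockdown cells heterogeneous pools and also write of clones kept under puromycin. The 5 groups of 3 libraries were bulk tumors with the control or with sh-B7-H3 (1), and tumor cells, sorted by magnetic removal of other cells, with the control or with each of the shRNAs against B7-H3. Levels are scaled FPKM, fragments per unit of transcript length and library size, divided by 1 further factor per library.

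CD276 itself read 34.0, 20.0 and 17.3 scaled FPKM in sorted sh-NC cells, 7.29, 14.0 and 11.5 with sh-B7-H3 (1), and 23.3, 25.4 and 25.7 with sh-B7-H3 (2). Its log2 difference from sh-NC was -1.04 with sh-B7-H3 (1) (limma, Benjamini-Hochberg adjusted p = 0.0547), 0.12 with sh-B7-H3 (2) (adjusted p = 0.775) and -0.07 in bulk tumors (adjusted p = 0.709), so the RNA did not check the label of the sh-B7-H3 (2) libraries or of the bulk sh-B7-H3 (1) libraries, and those names stand for labels throughout. Depth relative to the deepest library ranged from 0.468 to 1, and absolute read numbers are unknown. The library labelled sorted sh-B7-H3 (2) replicate 1 stood apart: 10 leukocyte markers summed to 342 scaled FPKM there, against 5.23 to 11.3 in the other 8 sorted libraries and 321 to 636 in bulk tumors, and 10 macrophage markers summed to 798, against 36.4 to 98.4. Values of that group are given with and without it.

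All 10 genes were matched to RefSeq by symbol. On GRCm38.p6, IL1RN lies on chromosome 2 at 24336860-24351491, IL1A at 129299609-129310186 and IL1B at 129364569-129371164 of the same chromosome, so that the genes of the 2 agonists are 54.4 kb apart while the antagonist is 104.9 Mb away. S100A8 (chromosome 3, 90669071-90670034) and S100A9 (90692630-90695721) are 22.6 kb apart. ADAM8 is on chromosome 7 (139978932-139995207), IL18 on chromosome 9 (50554700-50581841), CSF3R on chromosome 4 (126023441-126044975), and IL1R2 (40084692-40125230) and CXCR2 (74153994-74161246) on chromosome 1.

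Promoters, 250 bases before to 50 after each annotated start, are shown for the antagonist, for the agonist that differed most from it between bulk and sorted control samples, and for the S100 pair that moved together in bulk tumors. They are IL1RN at chr2:24345121-24345420 on the plus strand, where RefSeq gives 3 starts and this is the most downstream, IL1B at chr2:129371090-129371389 on the minus strand, S100A8 at chr3:90668821-90669120 on the plus strand and S100A9 at chr3:90695672-90695971 on the minus strand. Sequences are from RefSeq, build GRCm38.p6, 5′ to 3′ on the gene's strand, and capitals mark matches to searched motifs.
IL1RN: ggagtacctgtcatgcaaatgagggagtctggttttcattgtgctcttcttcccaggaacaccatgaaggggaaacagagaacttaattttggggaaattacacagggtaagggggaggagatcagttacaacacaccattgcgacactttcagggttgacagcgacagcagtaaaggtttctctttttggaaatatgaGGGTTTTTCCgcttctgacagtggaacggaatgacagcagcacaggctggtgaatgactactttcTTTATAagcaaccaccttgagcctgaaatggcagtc
IL1B: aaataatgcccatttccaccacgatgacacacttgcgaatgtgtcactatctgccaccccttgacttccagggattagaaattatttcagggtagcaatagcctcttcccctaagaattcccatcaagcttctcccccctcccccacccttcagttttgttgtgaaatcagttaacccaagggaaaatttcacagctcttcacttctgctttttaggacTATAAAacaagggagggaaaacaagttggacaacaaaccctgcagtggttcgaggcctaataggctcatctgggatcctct
S100A8: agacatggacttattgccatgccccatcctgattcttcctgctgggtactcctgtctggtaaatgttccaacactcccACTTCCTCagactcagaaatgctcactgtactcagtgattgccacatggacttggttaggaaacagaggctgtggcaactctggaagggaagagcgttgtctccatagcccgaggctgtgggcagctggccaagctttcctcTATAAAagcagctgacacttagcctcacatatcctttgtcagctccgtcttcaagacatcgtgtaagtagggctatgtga
S100A9: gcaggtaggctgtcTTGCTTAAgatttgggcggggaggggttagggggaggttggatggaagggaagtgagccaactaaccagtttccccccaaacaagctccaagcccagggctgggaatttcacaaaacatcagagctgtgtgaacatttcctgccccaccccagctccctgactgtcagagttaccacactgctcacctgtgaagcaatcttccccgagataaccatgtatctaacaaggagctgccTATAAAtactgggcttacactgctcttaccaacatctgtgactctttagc

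The motifs, searched on both strands, were GGG, any 2 bases, TT, any 1 base and CC for NF-κB, TTGCNNAA for C/EBP, TTCNNNGAA for STAT factors, GAGGAAGT for ETS factors and TATAAA, the TATA box. Counting the annotated start base as 0, TATAAA begins at -31 in IL1B, -30 in S100A8 and 0 in S100A9, and its reverse complement at 14 in IL1RN. An NF-κB match begins at -51 in IL1RN, a C/EBP match at -236 in S100A9 and an ETS match at -172 in S100A8. Of the 12 promoters of the 10 genes, 6 held TATAAA on either strand and at any position, against 13.62% of 32851 mouse promoters of this length, 2 held the C/EBP motif (10.8%), 1 the STAT motif (8.298%) and 1 the ETS motif (3.202%). The TATAAA matches not shown above begin at -32 in IL1A and, as the reverse complement, at -175 in IL18. For NF-κB, GGG and CC with any 5 bases between them were searched first and matched 5 of the 12 promoters, in 3 genes, but also 50.79% of all promoters. The narrower spelling was chosen after those matches were seen, and matched 2 of the 12, which are overlapping windows of IL1RN that share 1 match, against 4.794% of all promoters. A match describes letters and not a bound site.

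IL1RN, the antagonist, was chosen for its rise in sorted knockdown cells, so the size of its difference there is partly set by that choice. Sorted sh-NC cells read 2.05, 2.07 and 1.32 scaled FPKM, sorted sh-B7-H3 (1) cells 20.6, 20.8 and 19.3, and sorted sh-B7-H3 (2) cells 25.9, 16.3 and 15.8. Every knockdown library lay above every control library, and the replicates of sh-B7-H3 (1) were close together. The log2 difference from sh-NC was 2.93 (SE 0.15) with sh-B7-H3 (1) and 2.83 (SE 0.22) with sh-B7-H3 (2), or 2.61 without the library that stood apart. The pseudocount of 1 holds these values down, and with 0.1 they were 3.44 and 3.33. Epithelial markers moved with IL1RN: the 7 summed to 1005 to 1138 scaled FPKM in sorted sh-NC cells, 1853 to 2183 with sh-B7-H3 (1) and 1931 to 2175 with sh-B7-H3 (2), and 5 and 6 of the 7 were called higher by limma, where 9.03% and 11.7% of all genes were. Of 4 tested keratinocyte markers 3 were called higher with each shRNA. With each, 1 of the 3, KRT10, was at most 0.663 scaled FPKM in sorted sh-NC cells and passed the filter through the knockdown libraries. The part of these markers in the IL1RN values was not tested.

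In bulk tumors IL1RN read 9.65, 7.81 and 9.58 scaled FPKM with sh-NC and 18.3, 14.1 and 24.2 with sh-B7-H3 (1). The groups did not overlap, and the log2 difference was 0.96 (SE 0.19), beside control means of 9.01 in bulk tumors and 1.81 in sorted cells. The contrast of bulk with sorted samples reuses libraries whose values chose IL1RN, S100A8 and ADAM8, and a gene near 0 in sorted cells passes the filter of 1 scaled FPKM in 3 libraries only through its bulk level, so in both cases that contrast is described with no test. With sh-NC, IL1RN lay higher in every bulk tumor than in every sorted library, with a log2 difference of 1.84. With sh-B7-H3 (1), bulk and sorted levels overlapped, with a difference of -0.13. In bulk samples fewer cells of a type and less RNA per cell cannot be told apart.

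IL1A, a cytokine that is active as its precursor and often stored in epithelial cells, was low in control tumor cells. Sorted sh-NC cells read 0.114, 0.377 and 0.217 scaled FPKM, sorted sh-B7-H3 (1) cells 4.38, 1.37 and 3.08, and sorted sh-B7-H3 (2) cells 6.87, 1.28 and 1.11. Knockdown and control cells did not overlap, but the knockdown libraries were widely spread, and the sh-B7-H3 (2) mean of 3.09 became 1.19 without replicate 1. The log2 differences from sh-NC were 1.60 (SE 0.27) and 1.45 (SE 0.46). Counted in the largest step of FPKM that fits all libraries, the sorted sh-NC values were 8, 16 and 14 steps, so the control level rests on few fragments if a step is 1 fragment.

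Bulk tumors held 1.62, 1.28 and 1.53 scaled FPKM of IL1A with sh-NC and 2.19, 2.10 and 2.11 with sh-B7-H3 (1), groups that did not overlap and that differed by 0.34 (log2, SE 0.10). With sh-NC, every bulk tumor lay above every sorted library, by 1.01 in the log2 means. With sh-B7-H3 (1), where IL1A passed the filter in both kinds of sample and 38.2% of 11677 genes were called, the difference was -0.25 (95% interval -0.88 to 0.37, limma adjusted p = 0.478).

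IL1B, the agonist made mainly by activated myeloid cells and cleaved by caspase-1, was nearly absent from sorted cells. It read 0.088, 0 and 0.096 scaled FPKM with sh-NC, 0.443, 0.173 and 0.558 with sh-B7-H3 (1), and 77.6, 0.952 and 1.18 with sh-B7-H3 (2). The value of 77.6 belongs to the library that stood apart and was 72.8 times the mean of the other 2 libraries of its group. In steps, sh-NC cells held 4, 0 and 4, sh-B7-H3 (1) cells 14, 7 and 26, and the other 2 sh-B7-H3 (2) libraries 27 and 41. The 3 groups did not overlap, at levels that did not pass the filter.

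In bulk tumors IL1B read 5.71, 6.14 and 6.26 scaled FPKM with sh-NC and 6.49, 5.40 and 3.71 with sh-B7-H3 (1), overlapping groups with a log2 difference of -0.21 (SE 0.17). Bulk tumors lay above sorted cells, with log2 differences of 2.73 with sh-NC and 2.14 with sh-B7-H3 (1), and IL1B passed the filter there only through the bulk libraries.

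The balance of antagonist to agonists was taken as IL1RN over the sum of IL1A and IL1B, on the per-length scale. Bulk sh-NC tumors gave 1.32, 1.05 and 1.23, and bulk sh-B7-H3 (1) tumors 2.11, 1.88 and 4.16, with no overlap. Sorted cells gave 10.1, 5.48 and 4.23 with sh-NC, 4.27, 13.4 and 5.31 with sh-B7-H3 (1), and 0.307, 7.31 and 6.89 with sh-B7-H3 (2). The sorted groups overlapped, so the higher IL1RN of knockdown cells was not accompanied by a separated ratio there. In sorted sh-NC cells the sum of IL1A and IL1B was only 0.202 to 0.377 scaled FPKM, so the control ratios rest on values near 0 and the overlap decides little. IL1B over IL1A was 3.52 to 4.78 in bulk sh-NC tumors, 1.76 to 2.96 in bulk sh-B7-H3 (1) tumors and at most 1.06 in the 8 sorted libraries other than sh-B7-H3 (2) replicate 1, which gave 11.3.

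IL18, which many epithelial cells make without stimulation, was the most even member. Sorted cells read 9.86, 12.3 and 19.1 scaled FPKM with sh-NC, 19.6, 10.6 and 10.6 with sh-B7-H3 (1) and 15.8, 10.7 and 11.5 with sh-B7-H3 (2). Bulk tumors read 9.67, 6.98 and 8.39 with sh-NC and 11.5, 6.03 and 9.06 with sh-B7-H3 (1). Knockdown and control overlapped in both settings, with log2 differences of -0.03 and -0.08 in sorted cells and 0.05 in bulk tumors. Bulk and sorted levels differed by -0.62 with sh-NC (log2, limma adjusted p = 0.106) and by -0.55 with sh-B7-H3 (1) (adjusted p = 0.155). The first became a call without sorted sh-NC replicate 1 (-0.82, adjusted p = 0.019), and the second with FPKM as deposited (-0.81, adjusted p = 0.0347) or a replicate block (adjusted p = 0.042).

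IL1R2, the decoy receptor, was at 1.12 scaled FPKM or less outside replicate 1 of each sorted knockdown group. Sorted cells held 0.726, 0.223 and 0.847 with sh-NC, 1.62, 0.362 and 0.533 with sh-B7-H3 (1) and 2.24, 0.607 and 0.494 with sh-B7-H3 (2). Bulk tumors held 0.681, 1.12 and 0.847 with sh-NC and 0.605, 0.934 and 0.535 with sh-B7-H3 (1). Neighbouring groups overlapped throughout, and the gene passed the filter in no comparison.

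**Figure D1:**
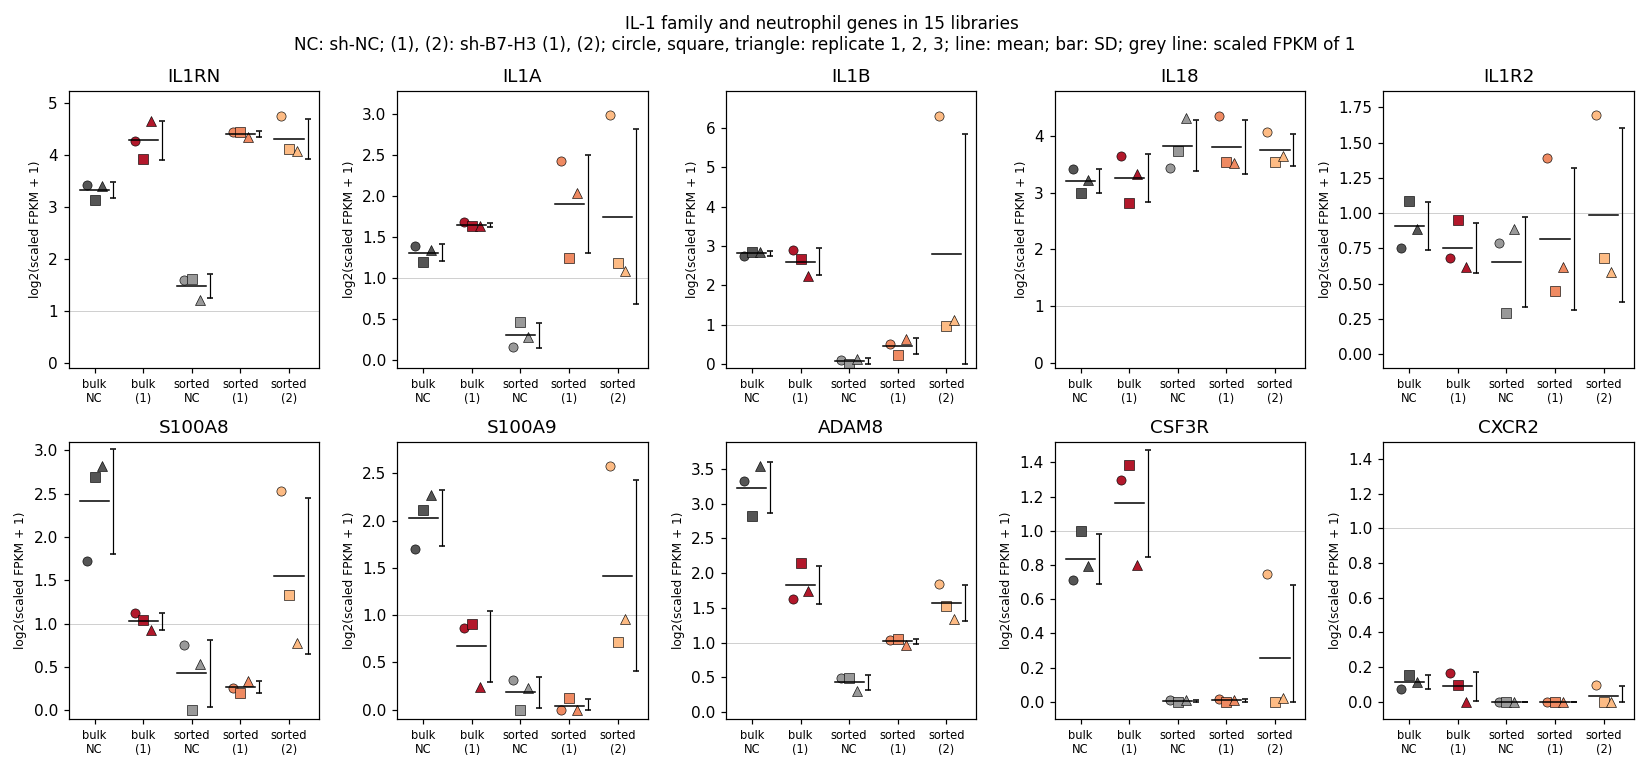
Level of each of the 10 genes in the 15 libraries as log2(scaled FPKM + 1), with the mean and SD of 3 libraries per group (bars stop at 0); NC is sh-NC and (1) and (2) are the shRNAs against B7-H3. IL1RN was lowest in sorted sh-NC cells, at 1.32 to 2.07 scaled FPKM, and S100A8, S100A9 and ADAM8 had their highest group mean in bulk sh-NC tumors. Replicate 1 of sorted sh-B7-H3 (2) was the highest library of its group for each of the 10 genes.

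S100A8 and S100A9, whose products form the heterodimer calprotectin, were both lower in bulk tumors with sh-B7-H3 (1). S100A8 read 2.29, 5.48 and 6.05 scaled FPKM in bulk sh-NC tumors and 1.18, 1.06 and 0.903 in bulk sh-B7-H3 (1) tumors, a log2 difference of -1.38 (SE 0.28). S100A9 read 2.24, 3.32 and 3.83 against 0.824, 0.872 and 0.177, a difference of -1.36 (SE 0.23). Neither gene overlapped between the groups, and without bulk sh-NC replicate 1, the lowest control, the S100A8 difference was -1.73. In steps, S100A8 stood at 12, 25 and 24 with sh-NC and at 5, 5 and 3 with sh-B7-H3 (1), so both groups were measured on few fragments if a step is 1 fragment.

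Sorted cells held still less of the pair. S100A8 was at 0.680, 0 and 0.443 scaled FPKM with sh-NC, 0.195, 0.153 and 0.265 with sh-B7-H3 (1), and 4.80, 1.52 and 0.710 with sh-B7-H3 (2). S100A9 was at 0.241, 0 and 0.174, at 0, 0.090 and 0, and at 4.97, 0.641 and 0.941. The sh-B7-H3 (2) libraries were the highest of the sorted libraries for both genes, also without replicate 1, whose values were 4.30 and 6.28 times the mean of the other 2. With sh-NC, every bulk tumor lay above every sorted library for both genes, with log2 differences of 1.98 for S100A8 and 1.85 for S100A9. With sh-B7-H3 (1) too few libraries reached the filter for a fit.

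ADAM8, a membrane metalloprotease of myeloid cells that some tumor cells also express, moved in opposite directions in the bulk and the sorted samples. Bulk tumors read 9.07, 6.06 and 10.6 scaled FPKM with sh-NC and 2.08, 3.42 and 2.34 with sh-B7-H3 (1), a log2 difference of -1.40 (SE 0.22) with no overlap. Sorted cells read 0.407, 0.401 and 0.235 with sh-NC, 1.04, 1.07 and 0.961 with sh-B7-H3 (1) and 2.58, 1.90 and 1.52 with sh-B7-H3 (2). The sorted groups did not overlap either, with the control lowest, and the sh-B7-H3 (2) difference from sh-NC was 1.14 (SE 0.15), while sh-B7-H3 (1) against sh-NC did not pass the filter.

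Bulk tumors lay above sorted cells in ADAM8, with log2 differences of 2.80 with sh-NC and 0.82 with sh-B7-H3 (1). Leukocyte marker sums overlapped between the bulk groups, at 333, 393 and 506 scaled FPKM with sh-NC and 517, 636 and 321 with sh-B7-H3 (1), and none of the 10 leukocyte markers passed the limma test between them (0 at an unadjusted p under 0.05). Of 9 tested macrophage markers 1 was called higher (CD68), of 6 monocyte markers 1 higher (PLAC8) and 1 lower (CHIL3), and of 4 endothelial markers none (1 at an unadjusted p under 0.05), beside 21.4% of all genes. CD68 and PLAC8 also read 25.0 to 33.3 and 26.2 to 70.6 scaled FPKM in sorted sh-NC cells, and were called higher in sorted cells with each shRNA. CHIL3, also on the neutrophil list, was at most 0.514 in bulk sh-B7-H3 (1) tumors and passed the filter through the controls.

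Other markers did move between the bulk groups, where 21.4% of 11800 genes were called. Of 6 mast cell markers, 4 were lower with sh-B7-H3 (1), as ADAM8 and S100A8 were: TPSB2, CMA1, CPA3 and MCPT4, all proteases of mast cell granules, fell by 1.36 to 2.13 on the log2 scale and reached at most 0.549 scaled FPKM in bulk sh-B7-H3 (1) tumors. KIT, a receptor of mast cells and other cells, was called higher, MS4A2 was not called, and the summed mast cell list was 19.1 to 21.9 with sh-NC and 15.2 to 52.8 with sh-B7-H3 (1). MS4A2 alone gave 5.16 to 12.3 and 12.5 to 51.1 of these sums. In sorted sh-NC cells MS4A2 read 26.8 to 49.2, while the 4 granule proteases were at 0.141 or less, so the sum does not follow the proteases. In bulk sh-B7-H3 (1) tumors both tested T cell markers of 6 were higher, with sums of 1.30 to 2.40 and 5.54 to 17.4. Of 6 tested fibroblast markers 4 were higher, with sums of 90.0 to 171 and 277 to 653, as were 3 of 7 epithelial and 2 of 3 keratinocyte markers. The 4 lower mast cell markers, KIT and the T cell markers lay under 1 scaled FPKM in all 3 libraries of their lower group, so they passed the filter through the other group. The part of these markers in the ADAM8, S100A8 and S100A9 values was not tested.

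The neutrophil receptors were too low to test. CSF3R, the receptor for granulocyte colony-stimulating factor, read 0.639, 0.996 and 0.732 scaled FPKM in bulk sh-NC tumors and 1.46, 1.61 and 0.741 in bulk sh-B7-H3 (1) tumors, overlapping groups of which the second had the higher mean. In sorted cells it was at 0.018 or less in 8 libraries and at 0.679 in sh-B7-H3 (2) replicate 1. CXCR2, the receptor for CXCL1 and CXCL2, read 0.054, 0.114 and 0.082 in bulk sh-NC tumors and 0.123, 0.069 and 0 in bulk sh-B7-H3 (1) tumors, and was listed at 0 in 8 sorted libraries. Both receptors overlapped between the bulk groups, and the mean of CXCR2 was lower with sh-B7-H3 (1) (0.0639 against 0.0835).

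**Figure D2:**
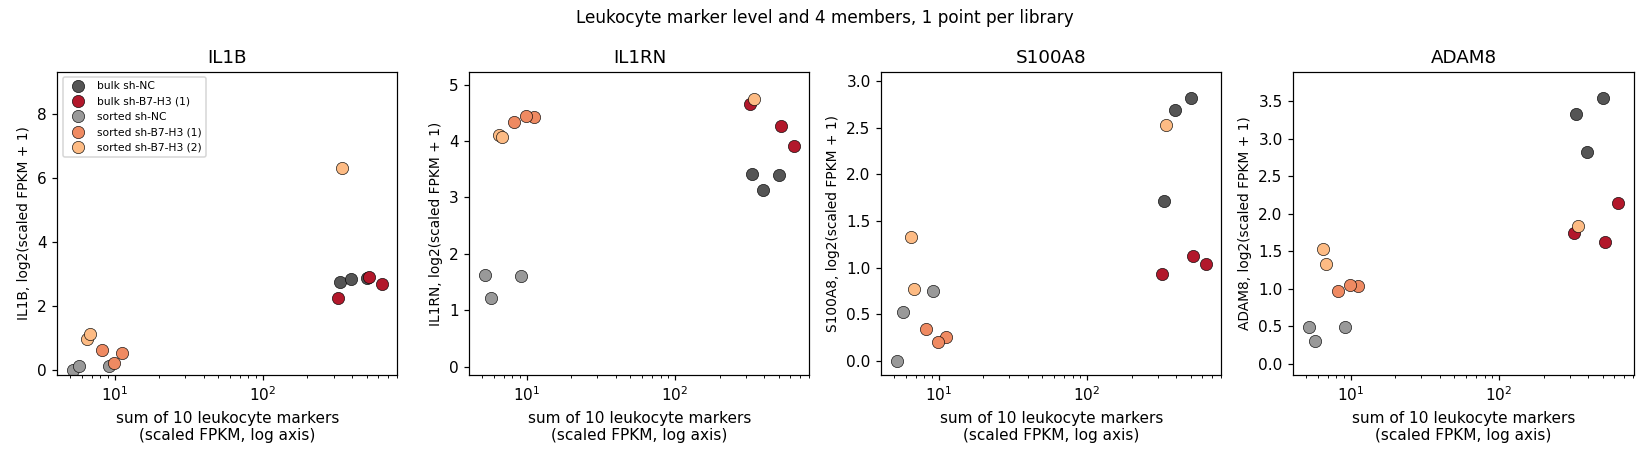
Summed level of 10 leukocyte markers (scaled FPKM, log axis) against log2(scaled FPKM + 1) of IL1B, IL1RN, S100A8 and ADAM8, 1 point per library. IL1B was at 3.71 scaled FPKM or more only in the 6 bulk libraries and the sorted library with a leukocyte sum of 342, whereas IL1RN read 15.8 to 20.8 in the 5 sorted knockdown libraries with sums of at most 11.3 and 14.1 to 24.2 in bulk knockdown tumors.

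The 2 shRNAs were compared in sorted cells for the 4 members past the filter. IL1RN was chosen for its rise in sorted knockdown cells, so the likeness of its 2 knockdown groups is partly set by that choice. It is described here with no test. None of the others was called by limma (1 at an unadjusted p under 0.05), against 3.4% of 11239 genes. The log2 difference of sh-B7-H3 (1) from (2) was 0.10 for IL1RN, 0.15 for IL1A (95% interval -1.05 to 1.35, adjusted p = 0.890), 0.06 for IL18 (-0.51 to 0.62, adjusted p = 0.916) and -0.55 for ADAM8 (-0.89 to -0.22, adjusted p = 0.083). The interval of IL1A is too wide to set the shRNAs side by side. With replicate number as a block, a pairing that the labels do not state, ADAM8 was called (adjusted p = 0.0444) and 1864 genes were called in place of 382. Without sh-B7-H3 (2) replicate 1, the differences were 0.32 for IL1RN, 0.77 for IL1A (adjusted p = 0.137) and -0.42 for ADAM8 (0.070).

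Among receptors of the family, both chains of the IL-18 receptor were called higher in each knockdown group. Of 5 tested of 9 listed, 2 rose in sorted sh-B7-H3 (1) cells, where 13.4% of all 11163 genes were called: IL18R1, the ligand-binding chain of the IL-18 receptor, by 3.08 (log2, limma adjusted p = 0.00025), and its partner chain IL18RAP by 1.12 (adjusted p = 0.0014). In sorted sh-B7-H3 (2) cells (19.1% of 11243 genes called) 4 rose: IL18R1 by 3.18, IL18RAP by 1.48, SIGIRR, an inhibitory receptor, by 1.36, and IL1R1 by 0.75. IL1RL1, another listed receptor, did not pass the filter there. It read 0.998 scaled FPKM in sorted sh-B7-H3 (2) replicate 1 and 9.86 and 10.2 in the others. Sorted sh-NC cells held 0.120 to 0.244 of it, and sorted sh-B7-H3 (1) cells 0.097 to 0.172. In bulk sh-B7-H3 (1) tumors (21.4% of 11800 genes called) 3 rose: IL18R1 by 2.70, IL1R1 by 1.03 and IL18RAP by 0.98. IL18R1 read 3.36, 4.30 and 6.38 scaled FPKM in sorted sh-NC cells and 32.8 to 65.8 in sorted knockdown cells, and 2.39, 4.34 and 4.55 against 19.7, 34.2 and 36.9 in bulk tumors. IL18R1 thus separated knockdown from control where IL18 overlapped. IL18RAP was at most 0.453 scaled FPKM in both control groups and passed the filter through the knockdown libraries. IL1RAP, the shared accessory chain, was called in none of these comparisons, at means of 2.01 with sh-B7-H3 (1) and 2.38 with sh-NC in sorted cells and 1.83 and 2.16 in bulk tumors, and SIGIRR was at 7.18 and 7.71 in bulk tumors. Without any 1 library of sorted sh-B7-H3 (1), 1 receptor was called in place of 2.

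IL18BP, the soluble binder of IL-18, rose by 1.94 with sh-B7-H3 (1) and 1.97 with sh-B7-H3 (2) in sorted cells and by 0.79 in bulk tumors, where the call was lost in 5 of the 6 runs that left out a library. IL1F9, an IL-36 cytokine, rose by 1.29 with sh-B7-H3 (1), and IL33, an epithelial alarmin, rose by 0.57 with sh-B7-H3 (2). Between the shRNAs, IL1F9 differed by 1.37 (adjusted p = 0.0277) and IL33 by -0.61 (adjusted p = 0.0495), and between bulk and sorted sh-NC samples IL33 differed by -0.65 and IL18BP by 0.63. Of 14 tested processing and signalling genes, 3 were called with sh-B7-H3 (1) in sorted cells, beside 13.4% of all genes: the DNA sensor AIM2 by 0.95, the kinase MAP3K7 by -0.53, and IRAK3, which restrains the pathway, by -1.48. None of 14 was called by limma with sh-B7-H3 (2) (2 at an unadjusted p under 0.05), where 1 was called without replicate 1 and also without sorted sh-NC replicate 1. In bulk tumors 4 of 15 were called, a share near the 21.4% of all genes: AIM2 by 0.79, IRAK3 by -0.95, CASP4 by -0.63 and TOLLIP by -0.34. IL1F9 passed the filter through the sh-B7-H3 (1) libraries. These counts rest on single libraries: 1 signalling gene was called in sorted cells without sh-B7-H3 (1) replicate 1 or 2, 1 or 2 in bulk tumors in 5 of 6 runs that left out a library, and 1 of 2 tested genes of the other cytokines and decoys without any 1 library of either sorted knockdown group or, for sh-B7-H3 (2), without sorted sh-NC replicate 2. In sorted cells IRAK3 read 1.20, 1.40 and 1.55 scaled FPKM with sh-B7-H3 (1), and with sh-B7-H3 (2) 1.55 in replicate 1 and 5.18 and 5.51 in the others, which lay within the sh-NC range of 4.66 to 7.28.

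Of 42 other genes known from neutrophils, 24 stayed under 1 scaled FPKM in all 15 libraries. LY6G, which defines mouse neutrophils, reached at most 0.278, and MPO, a granule enzyme, was listed at 0 in 14 libraries and at 0.0108 in the other. RETNLG, CXCR1 and FPR1 were at or under 0.465. The summed list was nonetheless 1855 to 3414 in bulk sh-B7-H3 (1) tumors and 295 to 486 in bulk sh-NC tumors, because LCN2 and LTF made up 86.0 to 99.2% of it. LCN2, an iron carrier that injured epithelium also secretes, rose by 3.28 with sh-B7-H3 (1) and 3.08 with sh-B7-H3 (2) in sorted cells and by 2.93 in bulk tumors. LTF, which encodes lactoferrin, rose by 3.07, 2.51 and 2.78, and PADI4, a citrulline-forming enzyme, by 2.18, 2.10 and 1.53.

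The neutrophil list therefore divided in bulk tumors. Of 14 tested genes, 3 were higher (LCN2, LTF and PADI4), beside 12.8% of all genes, and 4 lower, beside 8.52%: CHIL3, also a monocyte gene, fell by 1.52 on the log2 scale, CLEC4D by 0.97, TREM1 by 0.90 and CLEC4E by 0.90. CHIL3, TREM1 and CLEC4E were under 1 scaled FPKM in all bulk sh-B7-H3 (1) tumors and passed the filter through the controls. CLEC4D, TREM1 and CLEC4E are surface receptors of myeloid cells, and in sorted cells other than sh-B7-H3 (2) replicate 1 they were at 0.291 or less. Bulk sh-NC tumors held 2.51, 2.76 and 3.51 scaled FPKM of CLEC4D, and bulk sh-B7-H3 (1) tumors 0.886, 1.04 and 1.04. Without any 1 bulk sh-NC library, 4 genes were called in place of 7. In sorted cells 4 of 5 tested rose with sh-B7-H3 (1) (9.03% of all genes were called higher), the fourth being PGLYRP1 by 1.26 from at most 0.528 scaled FPKM in controls, and 3 of 5 with sh-B7-H3 (2) (11.7%), or 5 of 5 without replicate 1. Between bulk and sorted sh-NC samples 7 of 10 were called, all higher in bulk, beside 16.9% of 11418 genes, but 6 of the 7 (ITGAM, CLEC4D, CHIL3, TREM1, CLEC4E and SLFN4) were at most 0.481 scaled FPKM in sorted sh-NC cells and entered only through their bulk level, so the filter set their direction. The other was LRG1, by 0.53, and without any 1 bulk library 4 genes passed the filter and none was called by limma.

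**Figure D3:**
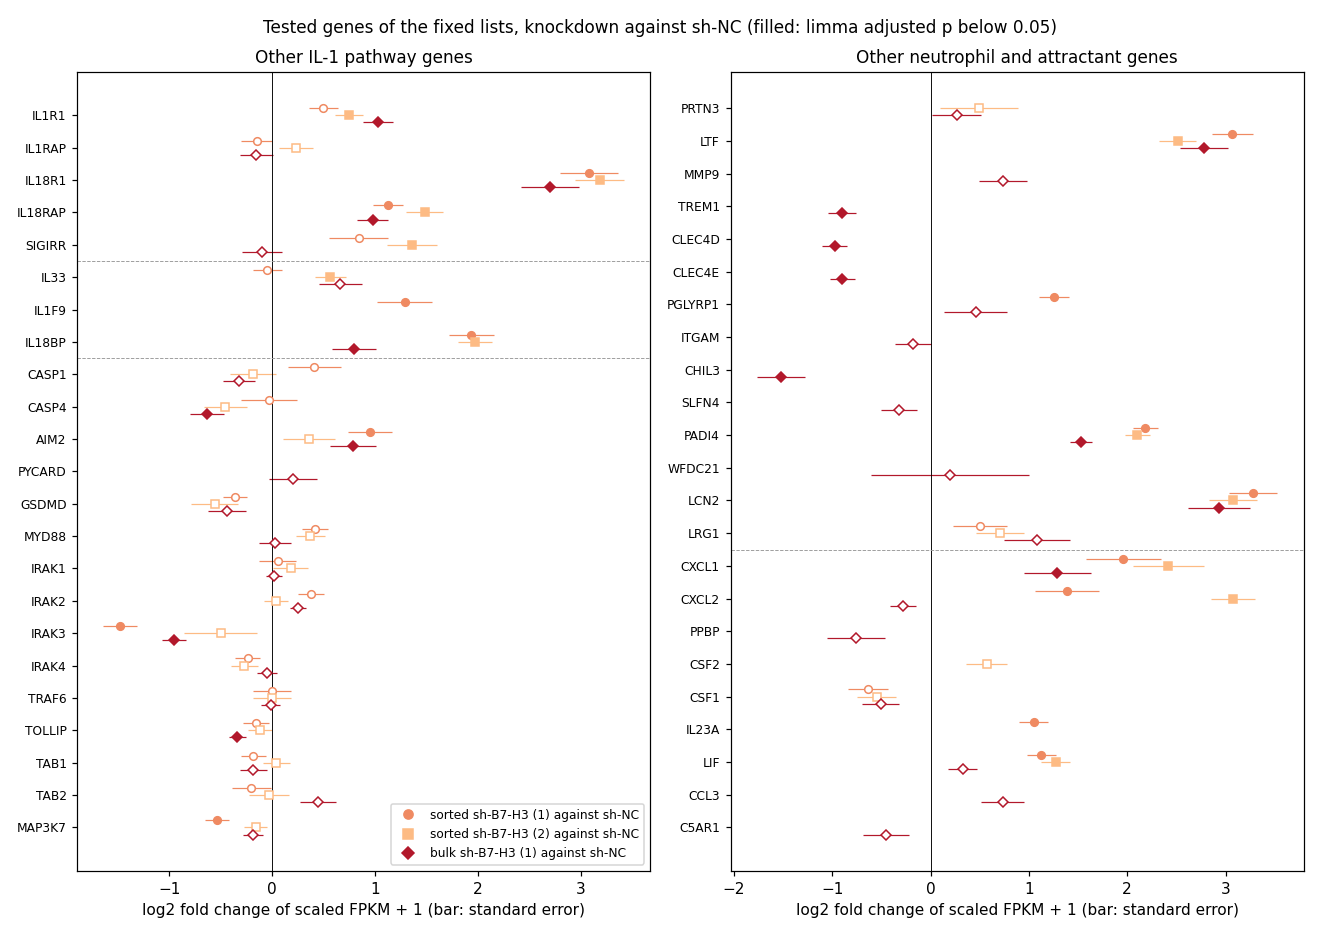
Log2 fold change, with its standard error, of tested genes of the IL-1 pathway lists (left) and the neutrophil and attractant lists (right) for sh-B7-H3 (1) or (2) against sh-NC, with filled symbols for an adjusted p below 0.05. IL18R1, IL18RAP, IL18BP, LCN2, LTF, PADI4 and CXCL1 were called higher in all 3 comparisons, and TREM1, CLEC4D, CLEC4E and CHIL3 were called lower in bulk tumors, where alone they were tested.

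CXCL1 and CXCL2, chemokines that act on CXCR2, were higher in sorted knockdown cells than in sorted controls. Not all related genes on the list were: CXCL5, CXCL15 and PPBP overlapped sorted sh-NC cells with both shRNAs. CXCL3 overlapped with sh-B7-H3 (1) and lay above with sh-B7-H3 (2), at 0.721 to 4.04 scaled FPKM against 0.093 to 0.283. CXCL1 read 4.92, 9.29 and 12.1 scaled FPKM in sorted sh-NC cells against 1.38, 1.91 and 2.18 in bulk sh-NC tumors, lower in bulk by 1.73 (log2, limma adjusted p = 0.00587). It rose by 1.96 with sh-B7-H3 (1) and 2.42 with sh-B7-H3 (2) in sorted cells and by 1.29 in bulk tumors, where the call was lost without any 1 sh-NC library and without sh-B7-H3 (1) replicate 1. CXCL2 rose in sorted cells by 1.39 and 3.08 and was -0.28 in bulk, not called. IL23A (1.05) and LIF (1.12) rose with sh-B7-H3 (1), and LIF by 1.27 with sh-B7-H3 (2). Of the 5 genes tested in each, 4 rose with sh-B7-H3 (1) (9.03% of all genes) and 3 with sh-B7-H3 (2) (11.7%), and of 7 tested in bulk tumors 1 rose, a share near the background of 12.8%. CXCL2 (at most 0.469 scaled FPKM) and IL23A (0.326) were under the filter in sorted sh-NC cells and passed through the knockdown libraries. Without any 1 library of sorted sh-B7-H3 (1), 2 of 3 tested were called.

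Likeness of pattern is given as Pearson's r of log2 levels, as a description. The libraries differ in depth and span knockdown and control groups, so r also reflects differences between groups. Over the 9 sorted libraries, genes among those most like IL1RN, of 11283 compared, were ATP8B1 (r = 0.996), ARHGAP32 (0.996), BSPRY (0.996) and EPB41L4B (0.995). Among members, ADAM8 reached 0.858, IL1A 0.838, IL1B 0.469 and IL18 -0.06. Over the 6 bulk libraries, genes among those most like S100A8, of 11818 compared, were TMEM138 (0.999), MRPL40 (0.989), EIF1AD (0.988) and RPS3A1 (0.988). Among members, S100A9 reached 0.947, ADAM8 0.813 and IL1B 0.544, while IL18 (-0.22), CSF3R (-0.42), IL1RN (-0.85) and IL1A (-0.93) ran the other way.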

How the data were processed

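RNA was measured in 15 libraries, grouped by their labels. The authors deposited FPKM per gene, with no read counts, and a table of log2(FPKM + 1) for 1000 genes that was not used for tests. Their processing notes name the build mm10; the aligner is not given in the sources used here. Of 24917 entries, 26 with symbols turned into dates were left out. Each library was scaled by a median-ratio factor from 9872 genes, since MIR6236 held 6.01 to 79.7% of the summed FPKM, and log2(scaled FPKM + 1) was fitted with limma 3.58.1 (R 4.3.3, mean-variance trend) over genes at 1 scaled FPKM or more in at least 3 libraries of a comparison, with Benjamini-Hochberg adjustment and a threshold of 0.05. Python 3.11.15 served for the rest. Fold changes of low genes are understated by the pseudocount. The fit was tested on simulated data.

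Where low values of a gene were whole multiples of 1 step across libraries, allowing for relative depth, levels are also given in steps, and a step may be more than 1 fragment. Whether libraries labelled as replicates came from separate mice is not given in the labels, so p-values measure the spread between these libraries. Pairing by replicate number was examined through the correlation of deviations from group means. Only sorted sh-B7-H3 (1) and (2) correlated positively at each of the 3 numbers, at 0.21, 0.23 and 0.21. These values are not independent of each other, no cut-off was set, and the labels state no pairing.

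The members, the gene lists and the tests were chosen with earlier results of these data known. Bulk and sorted samples were fitted too, but members whose values in these libraries chose them, or that were under the filter in all libraries of 1 group, are given there with no test. Between the shRNAs, IL1RN is likewise given with no test. Named genes are the 10 members, list genes called in a comparison (up to 5 in each direction; cell type markers mainly as counts), the 5 genes most like IL1RN and the 5 most like S100A8, and CD276. In each of these sets of 5, 1 gene is not reported here. Alternatives were FPKM as deposited, a pseudocount of 0.1, no filter, a replicate block, all groups in 1 fit, and leaving out each library.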

Additional observations from a re-analysis of the deposited data

Results flagged for a closer look

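ADAM8 was singled out because its difference between sh-B7-H3 (1) and sh-NC libraries took opposite signs in the 2 kinds of sample. Its lower level in bulk tumors was among the values that chose the genes. CD276 RNA was not called different between the bulk groups, so those names stand for labels. The mean scaled FPKM of sh-B7-H3 (1) over that of sh-NC was 0.304 in bulk tumors and 2.94 in sorted cells, and in each setting every sh-B7-H3 (1) library lay on the same side of every sh-NC library. The sorted ratio sets 0.961 to 1.07 scaled FPKM against 0.235 to 0.407, low levels at which ADAM8 did not pass the filter. The difference between the settings was not tested.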

How the results depend on the processing

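Some member differences, none of them called as reported, changed sign under an alternative. IL18 went from -0.03 to between -0.30 and 0.22 with sh-B7-H3 (1) in sorted cells, from -0.08 to between -0.28 and 0.16 with sh-B7-H3 (2), and from 0.05 to between -0.14 and 0.27 in bulk tumors. Between the shRNAs, IL1RN spanned -0.02 to 0.32, IL1A -0.18 to 0.77 and IL18 -0.22 to 0.21, and between bulk and sorted sh-B7-H3 (1) samples IL1RN spanned -0.41 to 0.06 and IL1A -0.58 to 0.01. The other member differences kept their sign. Genes called moved as follows. With a replicate block, 915 in place of 1497 for sorted sh-B7-H3 (1) against sh-NC, 1395 in place of 2150 for sorted sh-B7-H3 (2), 1413 in place of 2520 in bulk tumors, and 1864 in place of 382 between the shRNAs, where 1 member was called in place of 0. Only in the last comparison did same-numbered deviations correlate positively at every number, and in all of them the labels give the samples only a shared number. With FPKM as deposited, 961 in bulk tumors and 652 in place of 1924 between bulk and sorted sh-NC, and the median of all genes shifted to 0.17, 0.21 and -0.23 for sorted sh-B7-H3 (1), sorted sh-B7-H3 (2) and bulk against sorted sh-B7-H3 (1). Without the filter, 137 between the shRNAs. With all groups together, 3082 between bulk and sorted sh-NC. The causes were not tested.

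Leaving out 1 library gave 722 to 1948 genes for sorted sh-B7-H3 (1), 962 to 3614 for sorted sh-B7-H3 (2), 546 to 3793 in bulk tumors, 35 to 890 between the shRNAs, 139 to 4436 between bulk and sorted sh-NC, and 1674 to 3814 with sh-B7-H3 (1) in place of 4464. With 2 bulk libraries left, genes near 0 in sorted cells cannot pass a filter of 3 libraries, so fewer were tested.

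With a pseudocount of 0.1 the log2 difference of IL1A was 3.11 and 2.83 in sorted cells and 0.51 in bulk, of ADAM8 2.22 with sh-B7-H3 (2) and -1.67 in bulk, of S100A8 -1.93 and of S100A9 -2.33. IL1A between bulk and sorted sh-B7-H3 (1) was called without sorted replicate 2 (-0.58, limma adjusted p = 0.0376). Read totals are unknown, so the counting error of low genes such as CXCR2 is not known.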
